A study of Mus musculus with 8 samples.

Results

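Of 12957 tongue epithelial cells in 8 single-cell libraries, 373 passed a rule on transcripts of Crct1 and of 7 other cornification genes. Crct1 encodes a small cysteine-rich protein of the epidermal differentiation complex. All but 5 of the 373 cells came from the 4 libraries with activated YAP. A cell was counted when it carried at least 3 UMIs (unique molecular identifiers, each a counted transcript) of Crct1 and at least 1 UMI of 3 or more of 7 other genes, which were Sprr2f, Sprr2d, Sprr2h, Lce3c, Cnfn, Klk12 and S100a7a. Epithelial cells were those with 1000 to 5500 detected genes, at most 30000 UMIs, at most 7% mitochondrial UMIs, no UMI of the leukocyte gene Ptprc, and at least 0.5% of UMIs from 5 keratin genes (Krt5, Krt14, Krt15, Krt13 and Krt6a). Of 42550 cells in the matrices, 25199 were within the limits on genes, UMIs and mitochondrial share. The members were thus chosen by measured values of 8 genes, within epithelial cells that the 5 keratins and Ptprc defined, and differences from other cells in those genes, in the 5 keratins or in genes that accompany them are given as descriptions without a test.

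The libraries were made from viable sorted cells of mouse tongue epithelium, 15 days after transgene induction, in mice of 8 to 16 weeks. All mice carried Krt14-CreERT, which drives tamoxifen-dependent Cre in Krt14-expressing basal cells, and LSL-rtTA, and per the study's methods a doxycycline-driven H2B-GFP reporter, and all received tamoxifen in the tongue and doxycycline chow. N mice carried no further transgene, E mice carried tetON_E6-E7 (the HPV16 oncogenes), Y mice carried tetON_YAP1S127A (a YAP that escapes inhibition by Hippo signalling), and EY mice carried both, with 2 libraries in each of the 4 groups. The title of N replicate 2 names 2 animal numbers, so that library may pool animals. Libraries are called N1 to EY2 here, and 4 values given in a row stand for the 4 YAP libraries in the order Y1, Y2, EY1, EY2.

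Cornification is the last step of squamous differentiation. Keratinocytes that leave the basal layer cross-link small proline-rich (SPRR) proteins, late cornified envelope (LCE) proteins, loricrin and involucrin under the plasma membrane, through transglutaminases, while kallikrein proteases and their inhibitors control shedding. Most of these envelope genes sit side by side in the epidermal differentiation complex. YAP is the transcriptional co-activator at the end of the Hippo pathway, works through TEAD factors, and is known to keep basal keratinocytes in a progenitor state.

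The 3 Sprr2 genes of the rule are neighbours on chromosome 3 and shared an upstream layout, which is shown because all 3 helped to choose the cells. The 250 bases before the annotated start of each gene (RefSeq, GRCm38.p6, plus strand) follow, with capitals for the AP-1 motif TGANTCA and for the octamer ATTTGCAT. The stretches are chr3:92338890-92339139 for Sprr2d, chr3:92364937-92365186 for Sprr2f and chr3:92385435-92385684 for Sprr2h.
Sprr2d: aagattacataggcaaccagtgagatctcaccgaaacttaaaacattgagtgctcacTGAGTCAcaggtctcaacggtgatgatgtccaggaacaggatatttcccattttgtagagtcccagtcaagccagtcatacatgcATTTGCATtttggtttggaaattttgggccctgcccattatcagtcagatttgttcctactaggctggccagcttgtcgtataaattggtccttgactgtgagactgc
Sprr2f: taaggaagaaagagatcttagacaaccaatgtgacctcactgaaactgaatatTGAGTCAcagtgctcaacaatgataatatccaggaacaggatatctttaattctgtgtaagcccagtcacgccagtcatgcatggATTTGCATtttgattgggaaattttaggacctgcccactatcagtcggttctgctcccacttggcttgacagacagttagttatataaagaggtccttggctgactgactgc
Sprr2h: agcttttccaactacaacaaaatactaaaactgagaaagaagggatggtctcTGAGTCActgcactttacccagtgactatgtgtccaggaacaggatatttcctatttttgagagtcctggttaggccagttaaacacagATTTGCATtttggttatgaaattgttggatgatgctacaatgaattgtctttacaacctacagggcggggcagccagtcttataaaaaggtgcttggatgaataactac
Each held 1 AP-1 motif, whose first base lay at -193 in Sprr2d, -197 in Sprr2f and -198 in Sprr2h, and 1 octamer, which began at -108, -112 and -109. The TATAAA motif began at -29 in all 3. Both strands of 32851 promoters of the same length were searched. TGANTCA was found in 6.75% of them, ATTTGCAT in 1.6%, TATAAA in 12.4%, and TGANTCA with ATTTGCAT in 0.167% (55 promoters). The 6 letters GGAATG, the core bound by TEAD factors, were in 12.6% of all promoters, in none of the 3 Sprr2 stretches, at 1 place before Klk12 and at 3 before S100a7a. Lce3c and Cnfn held none of the 4 motifs, and no upstream sequence of Crct1 was used here, so 7 of the 8 genes were searched. Such a match describes letters and not binding. The Sprr2 stretches were 66.8 to 74.8% identical in pairs, against 52.8 to 62.8% for the other pairs of these genes.

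Selected cells, called Crct1-high cells below, were 34 of 1289 epithelial cells in Y1 (2.64%) and 61 of 1001 in Y2 (6.09%). In the EY libraries they were 15 of 170 cells in EY1 (8.82%) and 258 of 2027 in EY2 (12.7%). They numbered 0 of 3447 in N1 and 0 of 415 in N2, where the exact 95% binomial intervals reached 0.107% and 0.885%. They were 3 of 4055 in E1 (0.074%) and 2 of 553 in E2 (0.362%). The mean share was 7.56% ± 4.26 (SD, n = 4 libraries) with YAP1S127A and 0.109% ± 0.172 (SD, n = 4) without it, and the ranges did not overlap. Y libraries had 4.37% ± 2.44 (SD, n = 2) and EY libraries 10.8% ± 2.74 (SD, n = 2). Under these limits both EY libraries lay above both Y libraries, but the exact 95% binomial interval of EY1 (5.02 to 14.1%) took in the share of Y2. No test was run because the cells had been picked for this pattern. These intervals cover counting error only.

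**Figure D1:**
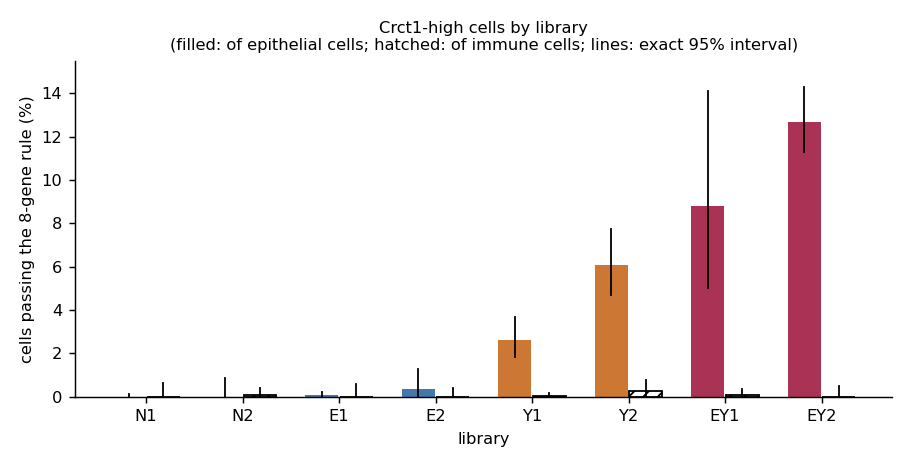
Share of cells that passed the 8-gene rule in each library, in percent of epithelial cells (filled bars) and of immune cells (hatched bars), with exact 95% binomial intervals as lines. The filled bars of the YAP libraries stand at 2.64, 6.09, 8.82 and 12.7%, and no library without YAP1S127A passes 0.362%.

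These levels changed with the limits on cells. Without the upper limits on genes and on UMIs, dropped together, the shares were 8.01, 13.2, 15.4 and 13.7%, with EY2 close to Y2 and both EY libraries still above both Y libraries, and they were 0.945% in N2 and 0.742% in E2. When each cell was thinned to 2000 UMIs and 1 UMI of Crct1 and 1 of any of the 7 other genes were asked for, a looser rule, the shares were 3.42, 8.79, 16.6 and 14.4%, and at most 0.904% in the other libraries. EY1 did not stay above Y2 in every setting. With cells of at least 200 genes EY1 had 5.31% and Y2 5.95%, and N1, N2, E1 and E2 had 0.111, 0.283, 0.138 and 0.768%. When cells under 0.5% mitochondrial UMIs were left out, EY1 had 4.9% and Y2 5.96%. Crct1-high cells had medians of 24610, 21945, 9557 and 20326 UMIs, against 18404, 20028, 14799 and 18199 in the other epithelial cells.

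Free RNA was checked in immune cells, defined by at least 1 Ptprc UMI and under 0.5% of UMIs from the 5 keratins, which should lack these genes. The keratin limit took out immune cells with the most keratin RNA, so the immune shares below can understate the background. Immune cells were also shallower than Crct1-high cells in Y1, Y2 and EY2. At least 1 Crct1 UMI was found in 17.5, 21.2, 14.3 and 18% of immune cells, at median depths of 7004, 5926, 10871 and 4841 UMIs. In epithelial cells outside the Crct1-high set the shares were 20.5, 38.6, 34.2 and 40.0%, so a single Crct1 UMI in Y1 said little. The whole rule was met by 2 of 3835 immune cells of Y1, 3 of 1111 of Y2 and 1 of 1543 of EY1, at most 0.27%, and by 0 of 757 in EY2, which allows a share of up to 0.396%. Klk12 separated the cell sets more sharply, with 1.15 to 2.77% of immune cells and 5.74 to 38.7% of other epithelial cells. Cnfn did not in Y1, with 12.1% of immune and 12.7% of other epithelial cells.

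Summed UMIs over epithelial cells ranged from 2454816 in EY1 to 55154619 in E1. Of 42314 distinct barcodes, 235 occurred in more than 1 library, and 6 Crct1-high cells carried such a barcode, none shared between Crct1-high cells. EY1 stood apart, since 66.7% of its Crct1-high cells (10 of 15) and 37.4% of its other epithelial cells had under 0.5% mitochondrial UMIs, against 3.49 to 11.8% and 1.02 to 3.82% in Y1, Y2 and EY2. Ratios to other cells are therefore summarised over Y1, Y2 and EY2, each with at least 20 Crct1-high cells, and EY1 is given beside them.

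Within the Crct1-high set, Crct1 was carried at a median of 83 UMIs per cell in Y1 (range 6 to 552) and 120 in Y2 (5 to 1078). The medians of the EY libraries were 21 (3 to 192) and 30 (3 to 662). Cells of both Y libraries held more than those of both EY libraries. Cnfn (cornifelin, a component of the cornified envelope) was found in 91.2 to 95.1% of the cells of these 4 libraries and Klk12 (a kallikrein serine protease) in 91.2 to 100%. S100a7a (a psoriasin-type calcium-binding protein) was found in 52.9 to 79.8%.

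The Sprr2 genes were less frequent than the name of a Crct1 and Sprr2 state would imply. Sprr2h had a UMI in 40.0 to 47.5% of Crct1-high cells, Sprr2f in 19.7 to 33.3%, Sprr2d in 14.8 to 32.4%, and Lce3c in 26.7 to 64.7%. Of the 373 cells, 208 (55.8%) held any of the 3 Sprr2 genes and 46 held all 3, whereas 251 (67.3%) held Cnfn, Klk12 and S100a7a together. Crct1, which all members held, therefore gives the cells their working name. Sprr2 genes are related copies, and the last 100 bases of their transcripts, where 3' counting reads, were 66.0 to 78.0% identical in pairs (Lce3b and Lce3c 91.0%). Whether reads were split between copies was not tested, so values of single members are uncertain.

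**Figure D2:**
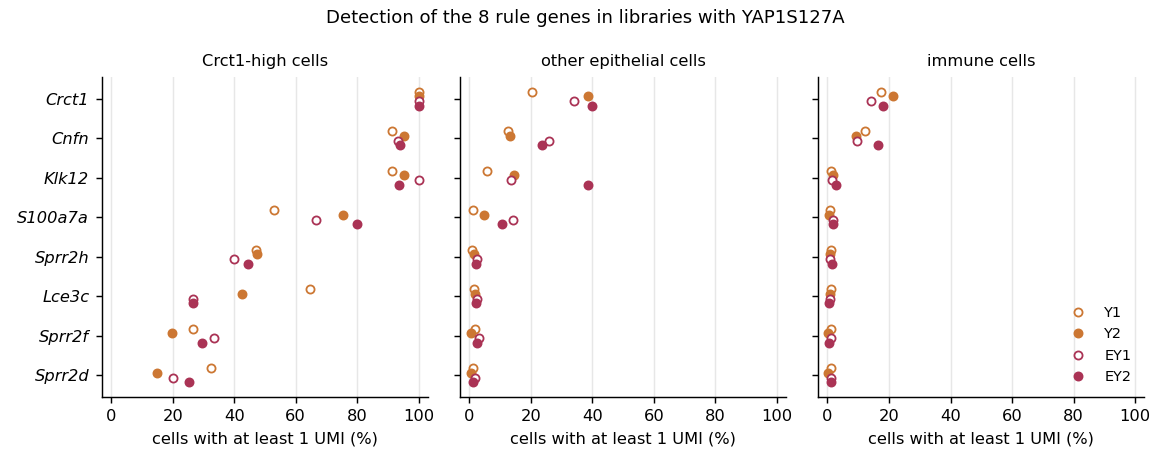
Percent of cells with at least 1 UMI of each of the 8 rule genes, in Crct1-high, other epithelial and immune cells of the 4 YAP libraries (1 point per library). Cnfn and Klk12 lie at 91.2% or more in Crct1-high cells of each library, while Sprr2d stays at or under 32.4%.

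The set had no sharp edge, and a high Crct1 count alone did not set its cells apart. Of 842 epithelial cells with 3 or more Crct1 UMIs, 82 held none of the 7 other genes, 170 held 1, 217 held 2, 202 held exactly 3 and 171 held 4 or more, so that 54.2% of members sat at the lowest count allowed. Cells with 2 of the 7 had a median of 15 Crct1 UMIs and members with exactly 3 had 22.5, and in Y1 and Y2 the former medians, 51 and 32, were above those of all members of EY1 and EY2. A further 38 cells held 3 or more of the 7 genes with 1 or 2 Crct1 UMIs, and 26 members had 3 or 4. The members carried 70.9% of all Crct1 UMIs of epithelial cells, and 71.7, 68.2, 56.4 and 74.3% library by library.

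The 5 members from E libraries were unlike each other. Their Crct1 UMIs were 56, 4 and 5 in E1 and 81 and 347 in E2. The cell with 347 also held 260 UMIs of Cnfn, 230 of Lce3c and 73 of Sprr2h, at 10995 UMIs and 1314 genes, and neither E2 cell had a mitochondrial UMI. With at most 3 such cells in a library without YAP1S127A, a test of YAP within the Crct1-high cells could not be run.

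Summed over the cells of a library, Crct1 reached 6042, 11400, 3287 and 2964 CPM (the UMIs of a gene in those cells, scaled to 1 common total of UMIs per cell set). The other epithelial cells of the same libraries had 76.7, 364, 202 and 160 CPM. Cnfn reached 3255, 4876, 1105 and 2274 CPM, Klk12 353, 507, 227 and 335 CPM, and Lce3c 621, 224, 105 and 65.0 CPM. These levels are what the rule selected.

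Envelope precursors that the rule did not name accompanied them. Ratios below are log2 of CPM in Crct1-high over other epithelial cells, with the worth of 1 UMI of the smaller set added to both, and are the median of Y1, Y2 and EY2. Of 7644 genes with a mean of 10 CPM or more in either set, 1803 (23.6%) were higher in all 3 libraries and 3569 (46.7%) lower, with a median of -0.19. Of 13 other SPRR and LCE genes at that level, 12 were higher and 0 lower, with a median of 4.87. Lce3a led with 6.75, followed by Sprr3 at 6.19, Sprr2i at 5.81, Lce3f at 5.65, Lce3b at 5.62, Sprr1b at 5.18 and Sprr1a at 4.87.

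Sprr1b was spread over most of the cells. It measured 616, 364, 326 and 387 CPM, against 7.07, 9.29, 34.3 and 23.9 CPM in other epithelial cells, and 79.4, 55.7, 86.7 and 65.5% of Crct1-high cells held it. Other members came from few cells. Lce3a was found in 14.7% of Crct1-high cells of Y1 and 18% of Y2, and 1 cell of Y1 carried 79.0% of the 462 UMIs there. Sprr3 was found in 32.4, 29.5, 13.3 and 13.6% of the cells.

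Among 19 envelope and filaggrin-type genes, 18 were higher in all 3 libraries and 0 lower, with a median of 1.72. Sbsn (suprabasin) was present in 93.3 to 100% of Crct1-high cells, at 3148, 2755, 1171 and 1226 CPM against 289, 383, 186 and 214 CPM. Ppl and Evpl, the plakins that line the envelope, had ratios of 2.0 and 1.45. Lor (loricrin, the main envelope protein of skin) was low, at 402, 87.2, 27.6 and 22.0 CPM, and in Y1 1 cell held 64.8% of its UMIs. It was lower still in other epithelial cells, at 8.32, 15.8, 4.84 and 6.46 CPM. Ivl (involucrin) had 0 UMIs in the Crct1-high cells of each of the 4 YAP libraries, and at most 0.0857 CPM in their other epithelial cells. Krt1 and Krt10, the suprabasal keratins of epidermis, stood at no more than 0.2 and 10.3 CPM.

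Proteases, inhibitors and lipid enzymes followed the same direction. Of 9 kallikreins and inhibitors, 8 were higher and 0 lower, with Klk10 at 1781, 1986, 1199 and 1193 CPM against 122, 181, 136 and 267, and Spink5, which inhibits epidermal kallikreins, at 1301, 2373, 1006 and 717 CPM against 123, 371, 121 and 80.1. Slpi, a secreted inhibitor of leukocyte elastase, measured 1575, 1525, 1254 and 2061 CPM against 43.1, 57.9, 200 and 394 CPM. All 10 lipid-barrier genes at 10 CPM or more were higher, with a median of 2.63. They included Abca12, the lipid transporter of lamellar granules, at 108, 119, 82.9 and 42.6 CPM against 7.07, 17.3, 9.24 and 9.90. Tgm1, the cross-linking enzyme, had a ratio of 2.71.

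**Figure D3:**
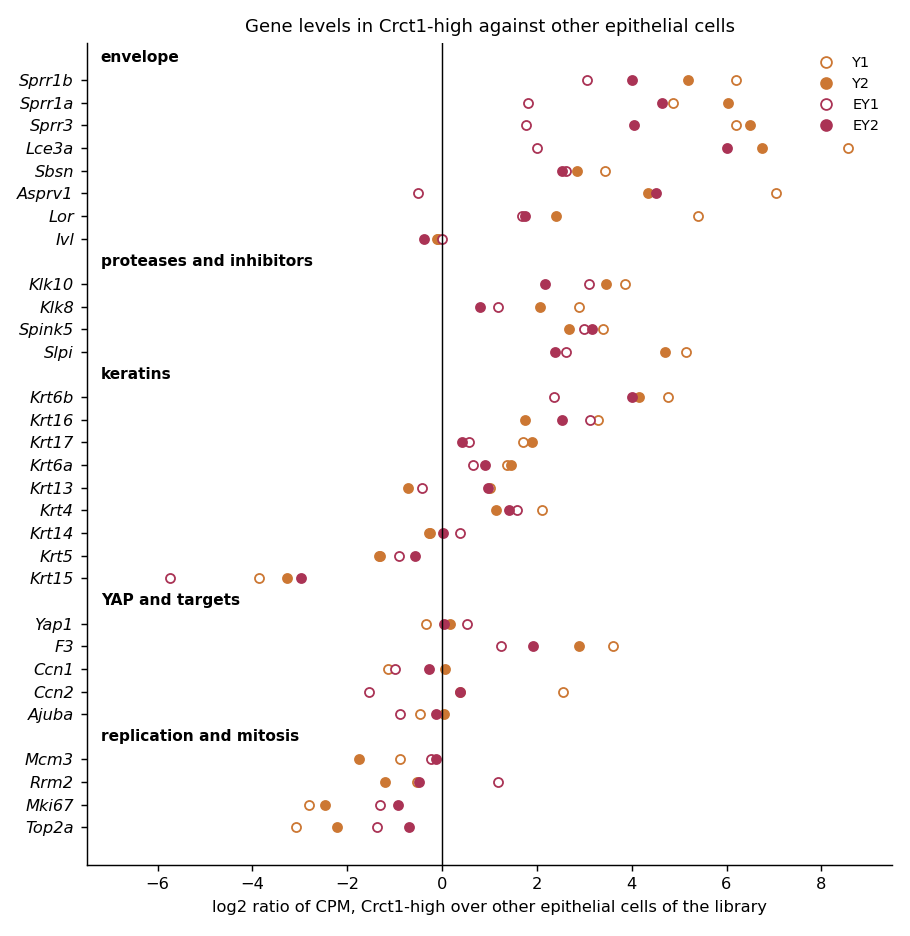
Log2 ratio of CPM in Crct1-high over other epithelial cells of the same library, for named genes by role, 1 point per library. Sprr1b lies at 3.06 to 6.20 in the 4 libraries and Krt15 at -5.74 to -2.97, with Krt14 near 0.

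The basal keratins differed from each other, within cells of both sets that were required to hold keratin UMIs. Krt14, the basal type I keratin, had 7271, 7059, 12265 and 11335 CPM in Crct1-high cells and 8733, 8526, 9452 and 11213 CPM in other cells, a ratio of -0.26, with medians of 157.5, 114, 106 and 207.5 UMIs per Crct1-high cell. Its partner Krt5 had a ratio of -1.31. Krt15, a keratin of basal progenitors, had 333, 358, 38.7 and 79.8 CPM against 4841, 3475, 2352 and 625, and in Y2 1 cell carried 72.7% of its UMIs. Of 15 basal progenitor genes, 0 were higher and 12 lower in all 3 libraries, among them Trp63 (the master factor of the basal layer, -1.20), Col17a1 (a hemidesmosome collagen, -1.26) and Sfrp1 (a secreted WNT antagonist, -2.32).

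The 4 stress keratins, which epithelia switch on in wounds, were all higher, with Krt6b at 4.16, Krt16 at 2.52, Krt17 at 1.71 and Krt6a at 1.37. Krt17 measured 5955, 8220, 8188 and 11080 CPM, against 1825, 2212, 5555 and 8313 CPM. Krt13 and Krt4, the pair of normal tongue suprabasal cells, differed in size, with ratios of 0.96 (higher in 2 of 3) and 1.42 (3 of 3).

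The Crct1-high cells were also set against cells outside them that held at least 10 UMIs each of Krt13 and Krt4, which mark ordinary suprabasal tongue cells, 301 in Y1, 347 in Y2 and 372 in EY2. Krt13 was then at -0.83 and Krt4 at -0.03, values that the choice of the comparison cells by these genes fixes in part, and Krt14 was at 0.03. Krt17 stood at 2.39 and Sprr1b at 5.71, with 616, 364 and 387 CPM in Y1, Y2 and EY2 against 5.31, 6.16 and 42.4. Krt15 stayed lower, at -3.71. Cells outside the set with at least 3 Lor UMIs together with Sprr1b UMIs were only 13 and were not compared.

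Several regulators of late differentiation were higher. Of 22 differentiation transcription factors, 13 were higher and 5 lower in all 3 libraries, with a median of 0.78. Prdm1, a transcriptional repressor that acts in terminal keratinocyte differentiation, stood at 4.11, Elf3 and Ehf, epithelial ETS factors, at 3.10 and 1.83, Hopx at 2.22, Grhl3, a grainyhead factor of the barrier, at 1.92, and Klf4 at 1.54.

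Alarmin and growth factor genes were mostly higher. Of 17 alarmin and cytokine genes, 14 were higher and 0 lower, with a median of 2.67. Il1f6, which encodes interleukin 36 alpha, stood at 5.49, Il33 at 3.73 and Tslp, a cytokine of barrier epithelia, at 2.88. Tslp came from few cells, since 29.4, 31.1, 26.7 and 18.2% of Crct1-high cells held it and 1 cell of EY1 carried 96.3% of that library's UMIs. Of 9 EGF receptor and ligand genes, 7 were higher, with Hbegf at 1192, 649, 486 and 382 CPM against 143, 142, 102 and 153 CPM.

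Direct YAP readouts were mixed. Yap1 itself measured 168, 502, 304 and 170 CPM in Crct1-high cells and 212, 448, 209 and 165 CPM in other epithelial cells, a ratio of 0.04, and whether transgene transcripts are counted under Yap1 is not given in the sources used here. Of 21 YAP target genes, 11 were higher in all 3 libraries and 4 lower, with a median of 0.44. F3 (tissue factor) stood at 2.88, whereas Ccn1 stood at -0.27 and Ccn2 at 0.37, with at most 19.0 CPM in Y2, EY1 and EY2. Of 13 Hippo and TEAD genes, 5 were higher and 4 lower, with Tead4 at 1.86 and Wwtr1, which encodes the YAP paralogue TAZ, at 1.33.

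Cell-cycle genes were lower in Y1, Y2 and EY2. All 24 G1/S genes and all 24 G2/M genes were lower in the 3 libraries, with medians of -1.03 and -1.70. Mki67 measured 16, 34.1, 33.1 and 90 CPM, against 120, 194, 90.2 and 172. After each cell was thinned to 2000 UMIs, at least 2 G2/M UMIs were found in 11.8, 13.1, 33.3 and 50.8% of Crct1-high cells, against 24.6, 38.6, 52.6 and 78.6% of other epithelial cells (1 cell of Y1 and 1 of EY1 were too shallow). Unthinned, the shares were 61.8, 59.0, 66.7 and 91.5% against 66.9, 73.3, 87.1 and 96.7%. The share in Crct1-high cells of EY2 thus lay above that in the other epithelial cells of Y1 and of Y2. Cdkn1a, which encodes the cell-cycle inhibitor p21, had a ratio of 1.65.

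The remaining lists were as follows. Of 2 transglutaminase genes at 10 CPM 1 was higher and 0 lower, and of 7 suprabasal keratins 3 and 1. Of 15 desmosome and adhesion genes 14 were higher and 1 lower (median 0.89), of 16 glycolysis genes 12 and 0 (0.40), of 17 hypoxia genes 11 and 2 (0.62), and of 9 antimicrobial genes 6 and 0 (1.34). Of 11 p53 targets 5 were higher and 0 lower (0.48), of 14 partial EMT and invasion genes 5 and 5, of 18 interferon-stimulated genes 1 and 5, of 15 NRF2 and glutathione genes 3 and 7, and of 16 dissociation-induced genes 3 and 9. The 8 genes lowest by ratio at 50 CPM or more were Crabp1 (a retinoic acid binding protein, -5.33), Chil4 (-3.95), Mt3 (-3.66), Cdca7 (-3.52), Ptn (-3.52), Wfdc2 (-3.28), Krt15 (-3.28) and Pdcd4 (-3.18). Crabp1 had 0 UMIs in the 95 Crct1-high cells of Y1 and Y2, against 73.9 and 31.0 CPM in the other epithelial cells there. Of the 15 highest outside the rule at that level, those not named above were 2310046K23Rik (4.78), Krt23 (4.74), Asprv1 (4.52), Mal (4.40), Slc1a1 (4.28) and Vsig10l (4.21). In EY1, Asprv1 and Vsig10l were lower in Crct1-high cells (-0.50 and -0.21).

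Markers of other cell types moved with some of these values. The 16 neutrophil markers summed to 199 to 2823 CPM in Crct1-high cells of the 4 libraries and 42.6 to 2297 in other epithelial cells. The sum was highest in EY1, and Ly6g was at 0 in Crct1-high cells. S100a8 and S100a9, which the antimicrobial list also holds, made up most of the sum in Crct1-high cells, at 1668 and 1033 CPM in EY1. The 16 gland and duct markers summed to 243 to 1340 against 41.9 to 441 CPM, with Dcpp1, Prol1, Muc5b, Muc19 and Dmbt1 at 0, and 98.1% of the 880 Psca UMIs of Y1 came from 1 cell. The 5 erythroid markers summed to 2.20 to 1521 against 1.69 to 519 CPM, and 1 cell of Y2 carried 999 of the 1009 Hbb-bs UMIs there. Fibroblast markers were lower, at 27.6 to 59.4 against 175 to 996 CPM (Lum, Pdgfra and Col6a1 at 0), and immune markers were at 37.3 to 138 against 95.2 to 325 CPM (Cd8a, Cd79a, Ms4a1, Adgre1 and, by the rule, Ptprc at 0). Endothelial and mural markers summed to at most 23 CPM, muscle markers to at most 22.1, melanocyte markers to at most 1.20, and taste markers to 0, with 7 of 10, 7 of 10, 4 of 7 and 10 of 10 at 0. The part of such cells in the ratios above was not tested.

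Many of these genes are neighbours in the genome. Of the 8 rule genes, 6 lie between S100a1 and S100a11 on chromosome 3 (GENCODE M21, mm10, chr3:90511034-93526287, 3.02 Mb), the mouse epidermal differentiation complex, and Cnfn and Klk12 lie on chromosome 7. Of 67 protein-coding genes of the interval outside the rule, 30 reached 10 CPM, and of these 25 were higher in all 3 libraries and 1 lower, with a median of 2.41, beside 23.6% and 46.7% of all genes. The 14 SPRR and LCE genes among them had a median of 4.77 and the 10 S100 genes 0.92.

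**Figure D4:**
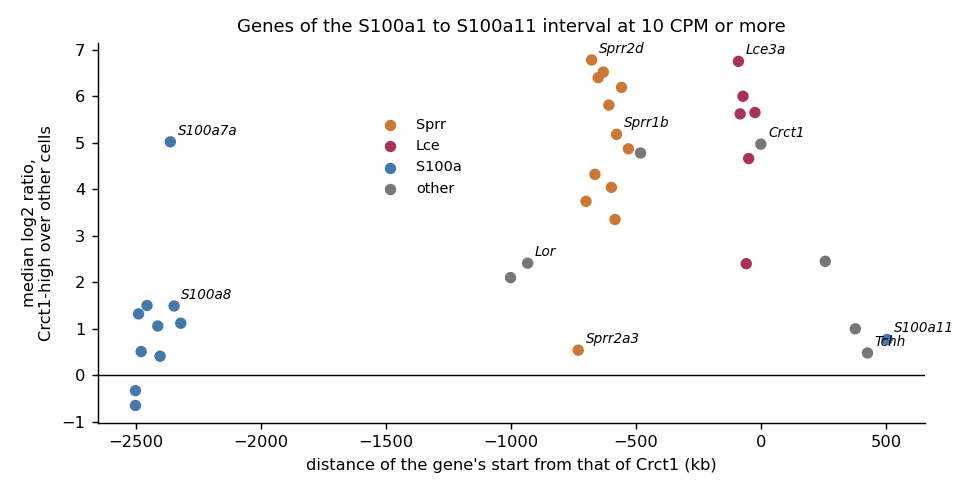
Median log2 ratio (Crct1-high over other epithelial cells in Y1, Y2 and EY2) of the genes at 10 CPM or more between S100a1 and S100a11, against the distance in kb of the gene's start from that of Crct1. SPRR and LCE genes stand mostly above 3, with Sprr2a3 at 0.54, while the S100 genes other than S100a7a stay at or under 1.5.

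Within the interval the families differed. Sprr2a3 measured 214, 138, 331 and 154 CPM in Crct1-high cells against 20.9, 114, 161 and 106 CPM in the other epithelial cells. Its ratio was 3.27 in Y1 but 0.28 in Y2 and 0.54 in EY2. S100a6 and S100a11, small calcium-binding proteins of most epithelia, stood at 0.41 and 0.77. Filaggrin-type genes at the far end varied. Flg (filaggrin) had 37.4 CPM in Y1 and at most 2.38 elsewhere, and Rptn (repetin) had 253 CPM in Y1, where 1 cell held 76.7% of its UMIs, and at most 0.20 elsewhere. Tchh (trichohyalin) was present in both sets, at 30.7, 75.3, 27.6 and 72.2 CPM against 30.2, 36.8, 77.4 and 51.7 CPM.

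Among Crct1-high cells, the question left to a test was whether added E6-E7 changed them. UMIs were summed per library and Y1 and Y2 compared with EY1 and EY2 by edgeR's quasi-likelihood test over 6941 genes, with Benjamini-Hochberg adjustment over all of them. At an adjusted p under 0.05, 20 genes (0.288%) were called, 9 higher (0.13%) and 11 lower (0.158%) in EY, and 1173 had an unadjusted p under 0.05. The plan had been to give values without a test if EY or Y had under 2 libraries with 20 cells. EY1 gave only 15 cells, so the test was run outside that plan, with a minimum of 10 cells per library. The count was unstable, from 0 to 489 over the alternatives. Dropping Y1 gave 338 calls, dropping Y2 321, dropping EY1 179 and dropping EY2 6, and it was 7 when cells under 0.5% mitochondrial UMIs were left out, and the 20 adjusted p values lay between 0.0358 and 0.0494. Libraries are 2 per group in the reported fit, and p values measure the spread between them. Fits without a library, with keratins at 2% or more, with 4 of the 7 other genes or without low-mitochondrial cells held 1 library in a group.

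Of the 9 genes higher in EY, Mcm3 and Rrm2 act in DNA replication. Mcm3, a subunit of the replicative helicase, measured 18.7 and 22.2 CPM in the Y libraries and 88.4 and 159 CPM in the EY libraries (log2 fold change 2.62 ± 0.37 SE, edgeR adjusted p = 0.0432). Rrm2, a ribonucleotide reductase subunit, measured 21.4 and 29.3 against 177 and 111 CPM (2.33 ± 0.35 SE, edgeR adjusted p = 0.0494). Groups did not overlap for either gene, which was a condition for naming genes by their fold change in this test. Over the 19 G1/S genes tested the median log2 fold change was 2.10, beside -0.01 over all genes tested, and 2 of the 19 were called, and over 21 G2/M genes it was 1.41 with 0 called.

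Syce2, a synaptonemal complex protein of meiosis, had the smallest p, with 17.4 and 20.6 CPM in Y against 144 and 185 in EY (3.07 ± 0.31 SE, edgeR adjusted p = 0.0358). Cxcl5, a neutrophil chemokine, had 5.34 and 1.59 against 127 and 83.0 CPM (4.91 ± 0.55 SE, edgeR adjusted p = 0.0358), and was found in 5.88 and 1.64% of Y cells and in 46.7 and 15.1% of EY cells. The groups did not overlap for these genes, which were named under the same condition. Icam1 (an adhesion molecule for leukocytes), Tubb5, Lgi2 and Krt18 (a simple-epithelium keratin) were higher too, by 2.15, 1.72, 4.35 and 3.76 on the log2 scale. Krt18 in EY2 was carried by few cells, 21.3% of them, with 1 cell holding 30.6% of the UMIs. Lgi2 had 1 and 2 UMIs in Y1 and Y2 and 4 in EY1. Crabp1, with 0 UMIs in Y, had 3 in EY1 and 218 in EY2, at least 20.2-fold higher against a floor of 3 counts over both Y libraries.

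Precursors of the envelope were among the 11 genes lower in EY. Sprr3 measured 180 and 292 CPM in Y against 22.1 and 29.0 CPM in EY (-3.16 ± 0.35 SE, edgeR adjusted p = 0.0358). Its value in EY1 rested on 4 UMIs. Sbsn measured 3148 and 2755 against 1171 and 1226 CPM (-1.37 ± 0.18 SE, edgeR adjusted p = 0.0432), and Hopx 868 and 848 against 315 and 238 CPM (-1.73 ± 0.24 SE, edgeR adjusted p = 0.0432). Egln3, an oxygen-sensing prolyl hydroxylase, measured 727 in both Y libraries against 182 and 209 CPM (-1.94 ± 0.23 SE, edgeR adjusted p = 0.0385). In each, both EY libraries lay under both Y libraries, which was a condition for naming Sprr3, Hopx and Egln3 by their fold change.

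The remaining called genes were lower by 2.05 to 5.22 on the log2 scale. They were Csta1 (-2.81), which encodes a cystatin of the envelope, Btg2 (-2.32), an antiproliferative gene, Krt7 (-4.03), Krt15 (-2.43), Upk3bl (-2.05), Tmem171 (-4.88) and Gm44275 (-5.22). Krt7, Tmem171 and Gm44275 had 0 UMIs in the 15 cells of EY1, and Krt7 was found in 14.7 and 13.1% of Y cells. Krt15 had 7, Csta1 3 and Upk3bl 4 UMIs in EY1. A single cell carried most of the Krt15 UMIs of Y2, so the Krt15 value there rests largely on that cell. Krt7 and Krt18 also stand in the gland and duct list. The neutrophil-associated calprotectin genes S100a8 and S100a9 measured 49.4, 187, 1668 and 837 CPM and 60.1, 257, 1033 and 416 CPM, without passing the test (edgeR adjusted p = 0.052 and 0.155). Their share in these differences was not tested.

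**Figure D5:**
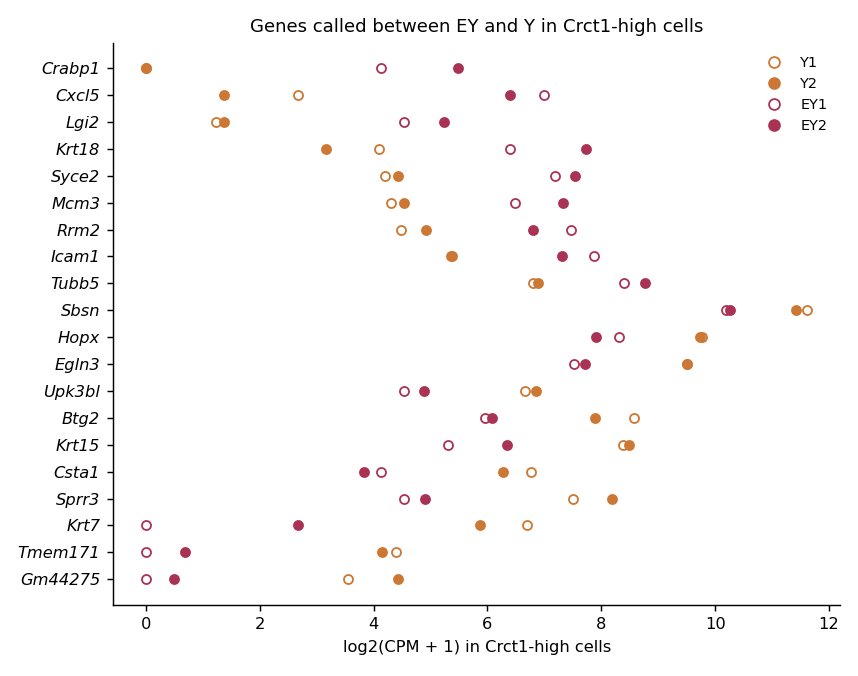
Log2(CPM + 1) in Crct1-high cells of each YAP library for the 20 genes called between EY and Y, 1 point per library. The EY points lie right of the Y points for the 9 genes higher in EY and left for the 11 lower.

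Few genes of the cornification lists passed this test. Of 12 other SPRR and LCE genes tested 0 were higher and 1 lower, with a median of -0.97, of 17 envelope genes 0 and 2 (-0.53), of 8 kallikreins and inhibitors 0 and 0 (-0.95), of 11 lipid-barrier genes 0 and 0 (-1.23), and of 20 YAP targets 0 and 0 (-0.86). All of these medians were negative, beside -0.01 over all genes tested. Krt13 measured 7096, 2046, 1232 and 1708 CPM and Krt14 7271, 7059, 12265 and 11335 CPM (edgeR adjusted p = 0.147 and 0.0814).

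EY and Y were also compared in the epithelial cells outside the set. There, 5 of 13410 genes (0.0373%) were called, with Lgals1, Stag3 and Zcwpw1 higher (0.0224%) and Paqr5 and Cspg4 lower (0.0149%). Stag3, a meiotic cohesin subunit, measured 0.171 and 0.109 CPM in Y, 11.4 and 15.4 in EY, 12.5 and 7.61 in E, and 0.582 and 0.114 in N (6.56 ± 0.59 SE, edgeR adjusted p = 0.0351). All 4 libraries with E6-E7 lay above all 4 without it. A count of 3137 genes had an unadjusted p under 0.05, and the count called ran from 0 to 2091 over the alternatives (1694 without EY1, 0 without Y2 and 0 without EY2).

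Whether the EY against Y difference was itself different in the Crct1-high cells was tested over 12886 genes in Y1, Y2 and EY2, with library as a block. By edgeR's quasi-likelihood test 288 genes (2.23%) were called, 75 (0.582%) positive, meaning a larger EY over Y difference in Crct1-high cells, and 213 (1.65%) negative. All 8 rule genes were among the negative calls, and the difference between the cell sets is the one the rule selected. EY rested on EY2 alone, so the spread between EY animals did not enter and no p of a single gene is given. DESeq2 called 32, and 94 were called when 2 of the 7 genes sufficed. Mcm2, another subunit of the replicative helicase, measured 4.01, 2.38 and 36.6 CPM in Crct1-high cells of Y1, Y2 and EY2 against 14.1, 28.9 and 44.3 CPM in the others.

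With YAP1S127A against without it, 865 of 12993 genes (6.66%) were called in the epithelial cells outside the set, 509 higher (3.92%) and 356 lower (2.74%), in a fit that also held E6-E7 as a term over all 8 libraries. Leaving out 1 library gave between 225 (without E1) and 1215 (without Y1) calls. Yap1 had 38.9 ± 6.67 CPM (SD, n = 4) without the transgene and 259 ± 128 (SD, n = 4) with it (2.72 ± 0.29 SE, edgeR adjusted p = 0.00424). Of 25 YAP targets 11 were higher and 0 lower, among them Amotl2 (3.17), F3 (3.07), Axl (1.61) and Lats2 (1.52). Of 16 glycolysis genes 9 were higher and 0 lower.

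Some envelope genes were higher with YAP outside the Crct1-high set, beside 3.92% of all genes tested. The rule had taken cells rich in such genes out of the YAP libraries and almost none out of the others. That lowers the YAP values here, so the counts hold only for the cells left. Of 6 other SPRR and LCE genes tested, Sprr3 (3.54 ± 0.52 SE, edgeR adjusted p = 0.0107) and Sprr2i (4.16 ± 0.79 SE, edgeR adjusted p = 0.0235) were called. They were scarce outside the set, at 1.95 ± 0.707 and 1.21 ± 1.26 CPM (SD, n = 4) with YAP1S127A and at 0.148 ± 0.105 and 0.0327 ± 0.0431 CPM (SD, n = 4) without it. Sprr3 was found in 1.83, 1.38, 2.58 and 1.58% of these cells and in 1.83, 1.08, 0.259 and 0.925% of immune cells, so in Y1 it was at the background, and with cells of at least 200 genes its fold change was 1.33 on the log2 scale (edgeR adjusted p = 0.219, and 1.23e-07 to 0.219 over all alternatives). Of 19 envelope genes 5 were higher, Ppl, Sbsn, Evpl, Casp14 and S100a11, and 2 were lower, Stfa3 and Csta1. Sbsn measured 120 ± 32.6 CPM without and 268 ± 88.1 with YAP1S127A (SD, n = 4, 1.17 ± 0.20 SE, edgeR adjusted p = 0.0152), and Slpi 5.42 ± 3.71 and 174 ± 163 (SD, n = 4, 4.57 ± 0.58 SE, edgeR adjusted p = 0.00665). The groups did not overlap for either gene. Sbsn was found in 56.8 to 75.6% of these cells and in 5.12 to 12.8% of immune cells. Slpi was found in 20.8, 22.4, 44.5 and 72.8% of these cells and in 24.7, 12.2, 74.7 and 65.3% of immune cells, so that these cells did not exceed immune cells in Y1 and EY1, and the part of free RNA or of immune cells was not tested.

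Some suprabasal keratins were lower. Of 10 suprabasal keratins, 0 were higher and 3 lower with YAP, Krt76 (-5.74), Krt23 (-1.96) and Krt79. Krt23 had 29.5 ± 13.8 CPM without and 6.77 ± 3.58 with YAP1S127A (SD, n = 4) in these cells. In Crct1-high cells it measured 342, 426, 5.52 and 75.6 CPM. The rule had taken 2.64 to 12.7% of epithelial cells out of the YAP libraries and at most 0.362% out of the others. The lower Krt23 is thus that of the cells left, and a difference over all epithelial cells was not tested. Krt17 was at 1367 ± 252 against 4476 ± 3057 CPM (SD, n = 4) and did not pass the test (edgeR adjusted p = 0.0532). Of the immune marker list 5 of 14 and of the neutrophil list 2 of 11 were higher too, among them Cd74 at 18 ± 4.94 against 49.7 ± 13.7 CPM and Retnlg at 0.383 ± 0.20 against 45.2 ± 68.3 CPM (SD, n = 4), and their part in these counts was not tested.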

How the data were processed

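Mouse tongue epithelium was profiled in 8 droplet libraries, 2 per group. The authors sorted viable cells, made 10x Genomics 3' libraries (kit v2 per the labels, another version in the methods), and ran Cell Ranger (5.0.0 per the file headers) against mm10. The deposited counts are UMIs per gene and cell, not normalized. The aligner's other settings are not given in the sources used here.

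Cells were filtered and chosen by the rule stated in the report. No doublet caller was run, and the limits on genes and UMIs stand in its place. The members, the 35 gene lists and the tests were chosen with earlier results of these data known. UMIs were summed per library and cell set, and CPM was computed from the sums, so edgeR fold changes, scaled by TMM, differ slightly from ratios of CPM. Genes were tested with edgeR 4.0.16 (glmQLFit, glmQLFTest, filterByExpr) in R 4.3.3, with Benjamini-Hochberg adjustment and a threshold of 0.05. For EY against Y in Crct1-high cells, the intended minimum of 20 cells per library left EY with 1 library. In that case the plan was to give values and run no test. The fit with at least 10 cells, which is reported, departs from it. The comparison of Crct1-high with other cells is that of the rule and has no test. The script was tested on simulated data. Genes named are the 8 rule genes, the 15 highest and 8 lowest by median ratio at 50 CPM or more, and genes of the lists. Up to 8 called genes in each direction per test (5 for the difference of differences) were named too. These had 20 CPM or more and no overlap between the groups compared. The other calls of the EY against Y tests and genes carried by 1 cell were chosen after their values were seen. Alternatives were DESeq2 1.42.0, upper-quartile scaling, no filter on low counts, other limits on cells and genes, thinning to 2000 UMIs, and leaving out each library.

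Depth per library was 46483469 to 102427359 UMIs. Of 32285 features, 32158 matched GENCODE M21. No detail of replicates beyond animal numbers in the titles was used, and library numbers follow accession order. Figures were drawn with matplotlib 3.10.9.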

Additional observations from a re-analysis of the deposited data

Results flagged for a closer look

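The difference between EY and Y was itself different in Crct1-high and other epithelial cells for 288 of 12886 genes (2.23%) by edgeR's quasi-likelihood test (adjusted p under 0.05), 75 in the positive and 213 in the negative direction. All 8 rule genes were among the 213, and the difference between the cell sets is the one the rule selected, so the count is no independent support. The fit held library as a block over Y1, Y2 and EY2, since EY1 had under 20 Crct1-high cells, so 1 library stood for EY, the spread between EY animals did not enter, and leaving out a library could not be fitted. With EY1 in the fit (at least 10 cells per library) 212 genes were called, 190 of them shared, and DESeq2 called 32.

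In the positive direction, Crabp1 differed by 10.75 on the log2 scale, with 0 UMIs in Crct1-high cells of both Y libraries, so the value depends on the prior count and is no bound. Calm4, Mt4, Gm94 and Cdca7 differed by 3.30, 2.83, 2.65 and 2.62. For Mt4, a metallothionein of squamous epithelium, Crct1-high cells had 679, 110 and 360 CPM in Y1, Y2 and EY2, and other epithelial cells 3218, 2340 and 452 CPM, so the wide change was that in the other cells. Calm4 had 42.8, 28.5 and 31.2 against 140, 102 and 9.93 CPM. Cdca7 had 5.34, 7.14 and 41.0 against 82.1, 90.5 and 82.7 CPM, a change in the Crct1-high cells.

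In the negative direction, Arg1, Cidea, Defb14, Psca and Tmprss11g differed by -5.71, -5.50, -5.47, -5.03 and -4.10. Arg1 and Psca were carried by single cells, since 1 cell of Y1 held 87.3% of its Arg1 UMIs and 1 cell held 98.1% of its Psca UMIs. Cidea had 24, 16 and 72 UMIs in Crct1-high cells of Y1, Y2 and EY2, Defb14 had 22, 38 and 29, and Tmprss11g had 22, 13 and 97, so these values rest on few molecules. Defb14 belongs to the beta-defensin family, whose copies can share reads.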

How the results depend on the processing

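EY1 gave 15 Crct1-high cells, the smallest sum of UMIs of the 4 YAP libraries. The EY against Y count in Crct1-high cells, 20, became 5 with at least 1 Crct1 UMI, 1 with 5, 102 with 2 of the 7 other genes, 98 with 4, 68 with at least 200 genes per cell, 102 without upper limits, 0 with keratins at 2% or more (edgeR, 403 with an unadjusted p under 0.05), 163 with a mitochondrial limit of 20%, 68 by DESeq2, 58 with upper-quartile scaling and 489 without a filter on low counts. Leaving out a library gave 6 to 338, and leaving out cells under 0.5% mitochondrial UMIs, an alternative chosen after seeing the data, gave 7. EY1 gave 8 Crct1-high cells with keratins at 2% or more, 7 with 4 of the 7 genes and 5 without low-mitochondrial cells. It was under the minimum of 10 there and left out, so EY2 alone stood for EY in those fits. Krt15 turned to 0.46 without upper limits. Of the 20 genes, 19 were called with 2 of the 7 genes, 20 with upper-quartile scaling, 16 by DESeq2 and 8 without upper limits.

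The YAP count in other epithelial cells, 865, became 5462 without upper limits, 1320 with a mitochondrial limit of 20%, 2330 by DESeq2, 3148 without a filter on low counts, and 225 to 1215 without 1 library. The EY against Y count there, 5, became 10 with 5 Crct1 UMIs and with upper-quartile scaling, 187 with 200 genes, 923 without upper limits, 748 with keratins at 2%, 128 without cells with UMIs of other cell types, 206 with a mitochondrial limit of 20%, 3 without low-mitochondrial cells, 839 by DESeq2, 2091 without a filter, and 0 to 1694 without 1 library (edgeR, 2534 with an unadjusted p under 0.05 without Y2 and 1708 without EY2). The count of genes whose EY against Y difference differed between cell sets, 288, became 94 with 2 of the 7 genes and 32 by DESeq2, and within it Ccl2 turned to 0.15 and Egln3 to 0.07 without upper limits, Igfbp3 to 0.21 with 200 genes and 0.28 with 10 cells, Krt13 to -0.07 with 200 genes, and Krt18 to -0.06 with 2 of the 7 genes and -0.91 without upper limits. The upper-quartile split was 114 and 170. The cause of these changes was not tested.

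The mean share with YAP1S127A, 7.56%, became 12.8% with 2 of the 7 genes and 12.6% without upper limits, and 5.85 to 9.2% without 1 library. The mean without it, 0.109%, became 0.325% with 200 genes, 0.446% without upper limits and 0.292% after thinning, and 0.0247 to 0.145% without 1 library. Genes higher and lower in all 3 libraries, 1803 and 3569, became 1806 and 3553 against other cells within the same range of depth, and 1794 and 3517 with a mean over cells in place of the sum. Of values for single named genes under alternatives, 2572 kept their direction and side of the threshold or moved by less than the spread, 767 lost the call, 3 moved and 8 reversed. With keratins at 2%, with 4 of the 7 genes and without cells with UMIs of other cell types, the difference between cell sets could not be fitted, and the last left too few Crct1-high cells for EY against Y. No paired analysis was possible because the replicate numbers follow accession order and the titles pair no libraries across groups.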
